A study of Mus musculus with 16 samples.

Results

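The histone deacetylases are the zinc-dependent enzymes that remove acetyl groups from lysines of histones and other proteins. Their genes were followed in the colon of mouse pups born by C-section (CSD) or by vaginal delivery (VD). The members were the 10 genes Hdac1, Hdac2, Hdac3, Hdac4, Hdac5, Hdac6, Hdac7, Hdac8, Hdac9 and Hdac11, taken by the gene name printed in the array files. All 10 were among the 36711 genes tested, with 23 of the 56366 probes retained.

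Acetylation of histone tails loosens chromatin and offers binding sites to bromodomain proteins, and deacetylases reverse it, mostly as the catalytic subunits of corepressor complexes. Class I enzymes are mainly nuclear. Class IIa enzymes have little deacetylase activity of their own, bind MEF2 transcription factors, and are sent out of the nucleus when kinases phosphorylate them and 14-3-3 proteins capture them. In the colon, butyrate made by bacteria is a well known inhibitor of several deacetylases, and Hdac1, Hdac2 and Hdac3 are known for their roles in epithelial differentiation and barrier maintenance.

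Total RNA of the colon, collected at weaning, was hybridised on 1-colour Agilent arrays, 1 array per pup. All pups were RjOrl:SWISS mice, an outbred stock kept under specific pathogen-free conditions. The 8 CSD pups (4 females, 4 males) were taken by hysterectomy and fostered by females that had given birth vaginally, while the 8 VD pups (2 females, 6 males) were born vaginally to mothers that exchanged litters. The pups came from 4 biological mothers, mothers 3 and 4 for CSD with 4 pups each, mother 5 for VD with 5 pups and mother 6 for VD with 3 male pups. Delivery mode therefore varied only between litters, so a comparison over litters rests on 2 litters a group. The arrays lay on 2 slides with 4 pups of each group on each. Of the spots other than controls, 58.7% to 64.9% per array were well above background. Values are log2 intensities after background correction and quantile normalization, averaged over the probes of a gene. They are not comparable between genes, because probes differ in how brightly they bind. Differences are CSD minus VD on the log2 scale from a limma model with sex as a fixed and the mother as a random effect, and a gene was called when its Benjamini-Hochberg adjusted p over all 36711 genes was under 0.05.

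The tissue label was checked against markers. All 12 epithelium markers, among them Epcam, Vil1, Cdx1, Car1 and Muc2, were well above background on all 16 arrays. Of 10 small intestine markers, Apoa1, Apoa4, Lct, Sis and Gata4 were well above background on 0 arrays, whereas Fabp2, Fabp6, Slc10a2 and Slc5a1 were on all 16 and Alpi on 7.

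Of the 10 deacetylase genes, 1 was called. Hdac5 was lower in CSD pups by 0.20 on the log2 scale, whereas the other members lay between -0.15 (Hdac7) and 0.10 (Hdac8) and did not pass the limit. Over all genes, 460 of 36711 were called (1.25%), and 201 were called lower in CSD (0.548%). At an unadjusted p under 0.05 the share of all genes was 14.5%, and Hdac5 was again the 1 member below it. The members were divided evenly, with 5 higher and 5 lower in CSD and a median difference of -0.02, against 0.00 over all genes. In 0 of the 10 members did the values of the groups not overlap, which held for 180 of the 36493 genes measured on all arrays.

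**Figure D1:**
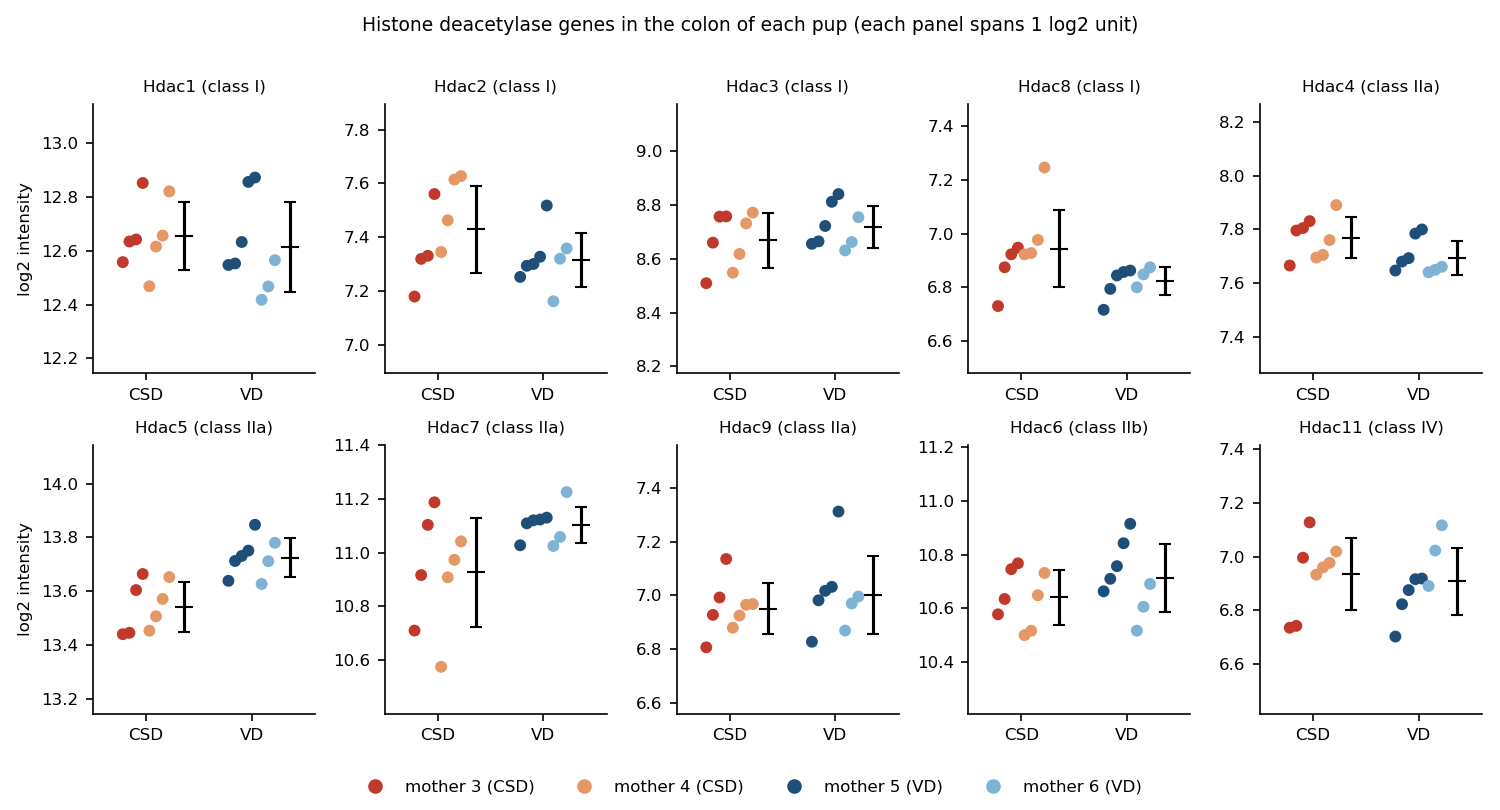
Log2 intensity of each deacetylase gene in each of the 16 pups, coloured by biological mother, with the mean and SD of each group beside the points; each panel spans 1 log2 unit. In the Hdac5 panel 6 of the 8 CSD pups lie below every VD pup, and the groups overlap in all 10 panels.

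Hdac5 is a class IIa enzyme that restrains MEF2-dependent transcription. The array measured it with 1 probe, A_55_P1983006, whose position in the scanner output is chr11:102057076-102057135 (mm9) and which lists 4 RefSeq transcripts, NM_001284248 among them, so that transcript variants were not separated. The last 30 bases of the probe and the sequence before the RefSeq start of the gene are shown because Hdac5 is the member the comparison turns on. In the probe the capitals mark ATTAAA, a common variant of the polyadenylation signal. In the promoter they mark a match to the MEF2 box.

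Hdac5 probe, 3′ end: attttgtttattttttctATTAAAaacaaa

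Hdac5 promoter: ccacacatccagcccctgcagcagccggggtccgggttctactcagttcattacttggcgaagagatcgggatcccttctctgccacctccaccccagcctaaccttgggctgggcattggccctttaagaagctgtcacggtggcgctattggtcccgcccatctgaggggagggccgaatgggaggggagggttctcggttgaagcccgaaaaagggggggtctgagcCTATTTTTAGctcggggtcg

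The promoter is the 250 bases before the start of Hdac5 in RefSeq (GRCm38.p6, chr11:102230173-102230422, minus strand). The MEF2 box was searched on both strands and lies 20 to 11 bases before the start. The motif was chosen after the sequence had been read. Of 32851 promoter windows of the same length, 959 hold a match (2.92%), and among the 8 members with a promoter in the table (12 windows) Hdac5 was the 1 that did. The match describes these letters only.

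In CSD pups the log2 intensity of Hdac5 was 13.44 in CSD 8, 13.44 in CSD 9, 13.45 in CSD 2, 13.51 in CSD 6, 13.57 in CSD 1, 13.60 in CSD 3, 13.65 in CSD 7 and 13.66 in CSD 5. In VD pups it was 13.63 in VD 6, 13.64 in VD 9, 13.71 in VD 7, 13.71 in VD 11, 13.73 in VD 5, 13.75 in VD 10, 13.78 in VD 8 and 13.85 in VD 4. The groups overlapped only through CSD 5 and CSD 7, which reached the level of the lowest VD pups. The means were 13.54 ± 0.09 and 13.72 ± 0.07 (SD, n = 8 each). The fitted difference was -0.20 (SE 0.043, 95% interval -0.29 to -0.11, limma adjusted p = 0.0362), a ratio of CSD to VD of 0.870. As RNA of whole colon was measured, fewer cells of a type and less RNA per cell cannot be told apart.

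The litters of a group lay close together. The litter means of Hdac5 were 13.54 (mother 3) and 13.55 (mother 4) in CSD, and 13.74 (mother 5) and 13.71 (mother 6) in VD, so both CSD litters lay below both VD litters. The difference had the same sign on both slides, at -0.15 on slide 1 and -0.25 on slide 2, each with 4 pups of each group. In males alone it was -0.19.

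The direction did not depend on the processing, whereas the call did. Hdac5 was lower in CSD in all 37 alternatives, by 0.15 to 0.25, with limma adjusted p between 0.0155 and 0.62. It was called in 8 of 17 alternatives of processing or model and in 8 of 20 in which a pup or a litter was left out. In the matrix of normalized values made by the authors, which holds 27036 genes, the difference was -0.20 with a limma adjusted p of 0.0866. With litter means in place of pups it was -0.18 with a limma adjusted p of 0.306. The call was lost, with a limma adjusted p over 0.05, without VD 11 (0.0526), VD 10 (0.0534), VD 5 (0.0534), CSD 3 (0.0545), CSD 1 (0.0576), CSD 8 (0.0603), CSD 6 (0.0612), CSD 9 (0.076) or VD 4 (0.109). It was also lost without the litter of mother 4 (0.0627), mother 3 (0.111) or mother 5 (0.24).

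**Figure D2:**
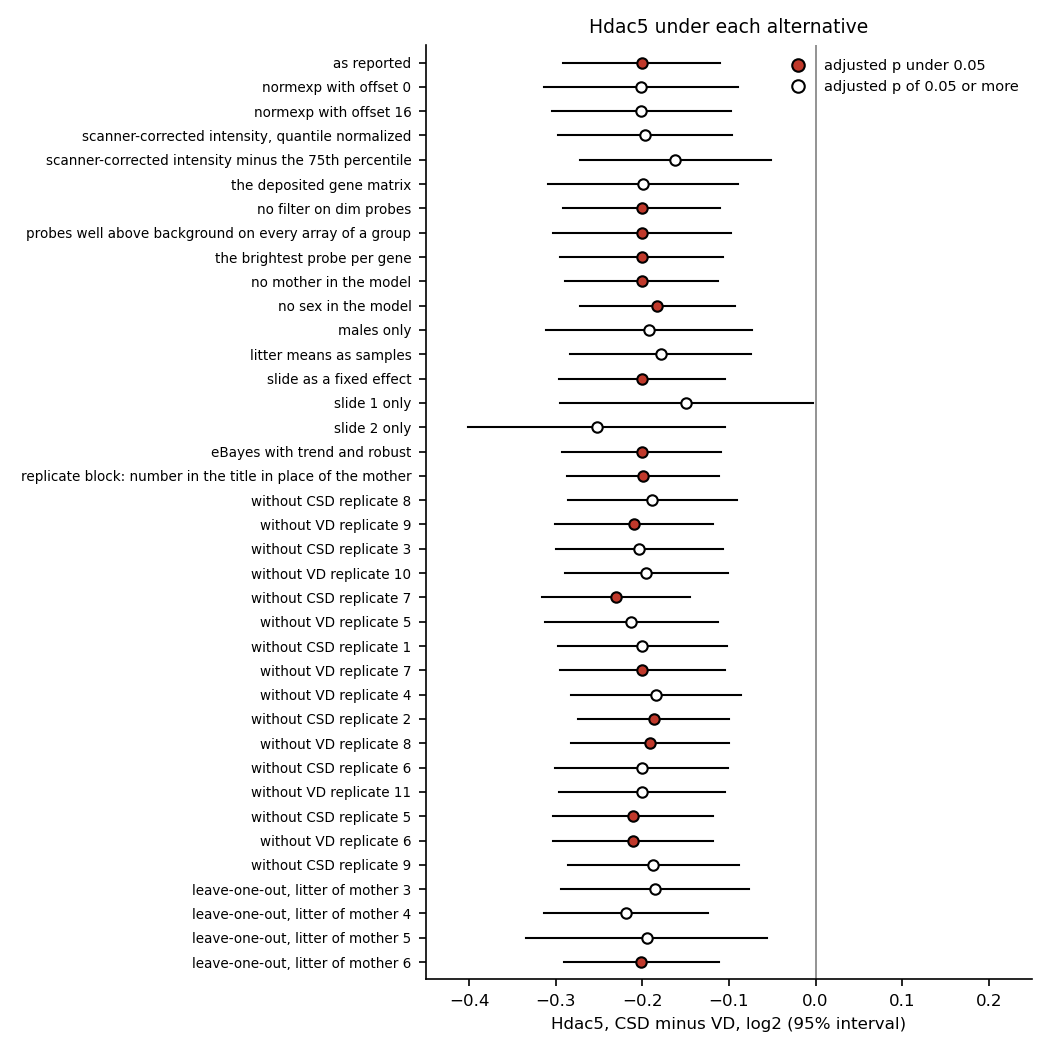
Difference of Hdac5 between CSD and VD pups on the log2 scale with its 95% interval, as reported and under each of 37 alternatives; filled points have an adjusted p under 0.05. All points lie between -0.25 and -0.15, and 16 of the 37 alternatives are filled.

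Hdac7, a class IIa enzyme with known roles in endothelium and lymphocytes, was the member with the next lower value. Its log2 intensity ran from 10.58 (CSD 2) through a median of 10.95 to 11.19 (CSD 9) in CSD, and from 11.02 through 11.11 to 11.23 in VD. Of the CSD pups 5 lay below every VD pup, but CSD 9, CSD 5 and CSD 6 lay among the VD values. The spread was wider in CSD (SD 0.20) than in VD (SD 0.07). The difference was -0.15 (SE 0.073, 95% interval -0.30 to 0.01, limma adjusted p = 0.378), and it was not called. It was below 0 in all 37 alternatives, with the lowest limma adjusted p at 0.196. The values ran from -0.20 without the litter of mother 3 to -0.07 in males only. Without the litter of mother 5 the difference was also -0.07.

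Hdac4, a class IIa enzyme best known from muscle and cartilage, had values above 0 instead. Its log2 intensity had a lowest, median and highest value of 7.67, 7.78 and 7.89 in CSD, and of 7.64, 7.67 and 7.80 in VD. The 3 highest pups were CSD and the 4 lowest were VD, with the others interleaved, and the difference was 0.06 (SE 0.039, limma adjusted p = 0.496). Over the 37 alternatives it ran from 0.03 in males only to 0.13 with the scanner-corrected intensity minus the 75th percentile. The Hdac4 probes ran from 0.004, for A_55_P2720645, which was well above background on 3 arrays, to 0.11. Without CSD 8, A_66_P115517 went from 0.04 to -0.01 and A_51_P417839 from 0.10 to 0.06. The highest was that of A_55_P2815862 (chr1:93831190-93831249), at 0.11 with a limma adjusted p of 0.223 over all probes.

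Hdac9, the remaining class IIa gene, is known for transcripts that lack the catalytic part of the enzyme and still bind MEF2. Its log2 intensity had a lowest, median and highest value of 6.81, 6.95 and 7.14 in CSD, and of 6.83, 6.99 and 7.31 in VD. The groups overlapped almost fully, and VD 5 stood above all other pups. The difference was -0.08 (SE 0.055, limma adjusted p = 0.522). It was -0.03 without VD 5.

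The 6 probes of Hdac9 were not all listed for the same transcripts. Whole probes of 60 bases are shown for Hdac9, and for members described further on, as examples of the sequences behind the values.

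Hdac9, A_51_P204031: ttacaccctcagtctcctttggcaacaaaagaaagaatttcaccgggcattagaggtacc
Hdac9, A_55_P2065074: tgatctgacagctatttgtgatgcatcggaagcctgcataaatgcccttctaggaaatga

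A_51_P204031 (chr12:35074257-35074316, mm9) lists both NM_024124 and NM_001271386, while A_55_P2065074 (chr12:34792084-34792143) lists only NM_001271386 among RefSeq transcripts. Each probe lists only a few accessions, so a transcript that is not listed may still be measured. The probe listed for both was well above background on all 16 arrays. The other was well above background on 0 arrays, so its values, 5.98 to 6.06 in CSD and 6.08 to 6.22 in VD, are only bounds, and A_51_P255467, also listed for NM_001271386, was well above background on 1 array. A_55_P2497024, listed for that transcript as well (chr12:34732448-34732507), was well above background on all 16 arrays. Its difference was -0.38 (SE 0.198, limma adjusted p = 0.388 over all probes), and VD 5 stood at 9.10 against 7.54 in the next VD pup. Without VD 5 it was -0.08 (SE 0.058, limma adjusted p = 0.589 over all probes). The CSD pups of that probe ran from 7.18 to 7.58 with a median of 7.34. A_51_P204031 gave 0.10 (SE 0.114). A_55_P1970755, which lists NM_024124, was well above background on all 16 arrays. It gave -0.05 (SE 0.106), and 0.02 without CSD 8. A_55_P2733412, also well above background on all 16 arrays, gave -0.11 (SE 0.058), and -0.05 without VD 4.

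Of the class I genes, Hdac1, Hdac2 and Hdac3 encode catalytic subunits of nuclear corepressor complexes, whereas the Hdac8 enzyme acts outside them. Probes of Hdac1, Hdac2 and Hdac8 are shown together with that of Hdac4 named above.

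Hdac1, A_65_P09914: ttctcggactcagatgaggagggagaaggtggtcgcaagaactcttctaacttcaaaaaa
Hdac2, A_51_P116007: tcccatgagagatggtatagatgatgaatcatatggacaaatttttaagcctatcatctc
Hdac8, A_52_P464062: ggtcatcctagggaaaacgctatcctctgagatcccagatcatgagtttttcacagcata
Hdac4, A_55_P2815862: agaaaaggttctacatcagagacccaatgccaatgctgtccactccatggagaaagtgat

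The Hdac8 probe spans 94900 bases of chromosome X (chrX:99503070-99597969, mm9) and the Hdac2 probe 135 bases of chromosome 10 (chr10:36713455-36713589), although each is 60 bases long, so both are placed in more than 1 block. The Hdac1 probe shown lies at chr4:129194655-129194714.

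Hdac8, the class I enzyme that deacetylates the cohesin subunit Smc3, had the highest difference of the family. Its log2 intensity had a lowest, median and highest value of 6.73, 6.93 and 7.25 in CSD, and of 6.72, 6.85 and 6.87 in VD. A total of 7 pups in the CSD group exceeded the highest VD pup, most of them by a small margin, and CSD 8 lay among the lowest pups. The difference was 0.10 (SE 0.054, limma adjusted p = 0.430), and 0.07 without CSD 1, the highest pup. It was above 0 in all 37 alternatives, and the lowest limma adjusted p was 0.162. The value ran from 0.02 with the brightest probe per gene to 0.26 with the scanner-corrected intensity minus the 75th percentile. Its probes gave 0.18 for A_51_P481191 (limma adjusted p = 0.191 over all probes), which was well above background on 15 arrays, and 0.02 for A_52_P464062. The latter was 0.08 without CSD 8 and -0.003 without VD 4.

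Hdac1 and Hdac2, which act in pairs in the NuRD, Sin3 and CoREST complexes, showed no difference past the limit. Hdac1 had a lowest, median and highest value of 12.47, 12.64 and 12.85 in CSD, against 12.42, 12.56 and 12.87 in VD, and a difference of 0.03 (SE 0.075, limma adjusted p = 0.911), which was 0.07 without VD 4 and -0.02 without CSD 9. Hdac2 had 7.18, 7.40 and 7.63 in CSD against 7.16, 7.31 and 7.52 in VD, with a difference of 0.07 (SE 0.054, limma adjusted p = 0.616), which was 0.04 without VD 4. Both groups covered nearly the same range for Hdac1, and for Hdac2 the 3 highest pups were CSD 1, CSD 2 and CSD 3, all females.

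Of the 3 Hdac1 probes, A_51_P507380 (accession U80780) is placed on chromosome 17 and the other two on chromosome 4. RefSeq's gene table lists a pseudogene, Hdac1-ps, on chromosome 17, so the value of this probe is uncertain as a measure of Hdac1. It gave -0.07 (SE 0.079), whereas the probes on chromosome 4 gave 0.05 (SE 0.079; -0.01 without CSD 9) for A_55_P1970775 and 0.11 (SE 0.163; 0.01 without VD 5) for A_65_P09914. All 3 differences had 95% intervals that included 0.

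Hdac3, the catalytic subunit of the NCoR complex, had a lowest, median and highest value of 8.51, 8.70 and 8.77 in CSD and of 8.63, 8.69 and 8.84 in VD. The medians were nearly equal, although the 3 lowest pups were all CSD. The difference was -0.04 (SE 0.049, 95% interval -0.14 to 0.07, limma adjusted p = 0.779), with -0.07 for the probe A_51_P483089 and -0.01 for A_65_P16459. Without CSD 7 it was -0.01, and the probes gave -0.04 and 0.01.

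Hdac6, the class IIb enzyme that deacetylates tubulin in the cytoplasm, had 10.50, 10.64 and 10.77 in CSD against 10.52, 10.70 and 10.91 in VD, with a difference of -0.06 (SE 0.060, limma adjusted p = 0.705), which was -0.03 without CSD 7. The difference was 0.07 without the litter of mother 5, 0.02 on slide 2 alone and -0.13 without the litter of mother 6. Hdac11, the class IV enzyme, had 6.74, 6.97 and 7.13 in CSD against 6.70, 6.90 and 7.12 in VD, with a difference of 0.01 (SE 0.065, limma adjusted p = 0.979). For Hdac6 the 2 lowest pups were CSD and the 2 highest VD, with the others interleaved, and for Hdac11 the ranges were nearly the same. Without 1 pup the difference of Hdac11 lay between -0.03 (without VD 5) and 0.04 (without CSD 8). Of the Hdac11 probes, A_55_P2739481 was well above background on 5 arrays only.

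Set out by class, 3 of the 4 class I genes were higher in CSD (median 0.05) and 3 of the 4 class IIa genes were lower (median -0.12, with Hdac5 called). The class I count and median changed with the pups included. Hdac1 was -0.02 without CSD 9, and Hdac2 was -0.01 without the litter of mother 4. Those of class IIa changed as well. Hdac9 was -0.03 without VD 5 and 0.01 on slide 2 alone. In males only, Hdac7 was -0.07 and Hdac9 -0.04. Among members other than Hdac5, 0 were called in any of the 37 alternatives, and the lowest limma adjusted p was 0.142, for Hdac6. In the comparison reported, the 95% intervals of all members ran no lower than -0.30 and no higher than 0.22. Alternatives gave wider ones. That of Hdac8 reached 0.50 with the scanner-corrected intensity, quantile normalized, and that of Hdac5 reached -0.40 on slide 2 alone.

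**Figure D3:**
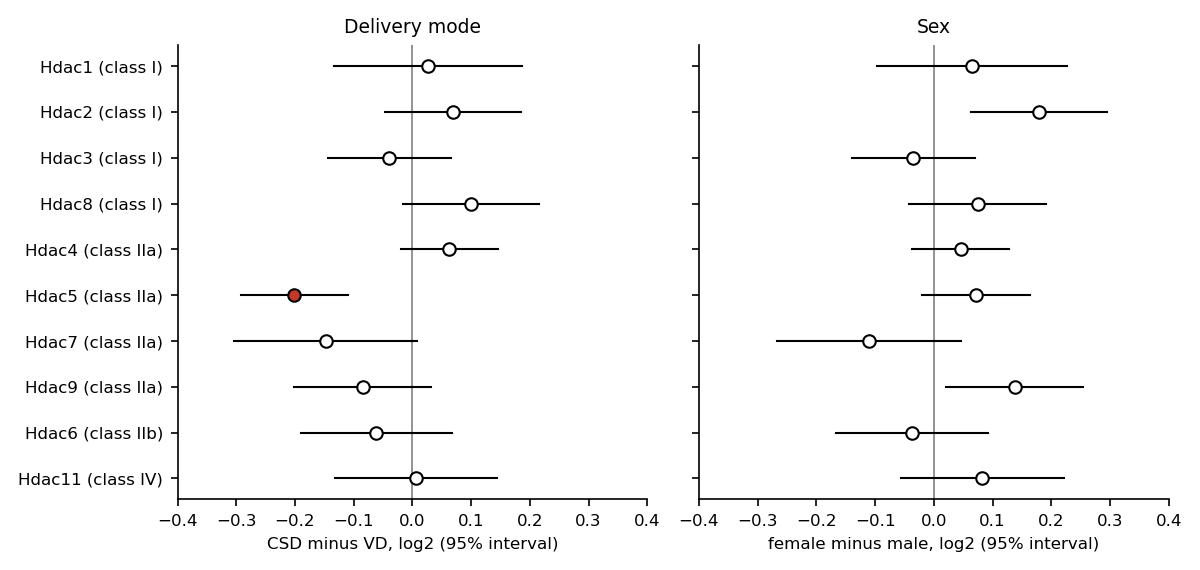
Differences of the 10 deacetylase genes on the log2 scale with 95% intervals, CSD minus VD at left and female minus male at right; a filled point has an adjusted p under 0.05. Hdac5 at left is the 1 filled point, and at right the intervals of Hdac2 and Hdac9 lie above 0 without passing the adjusted limit.

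Probe by probe, 18 of the 23 probes were well above background on all 16 arrays and 1 on 0 arrays. In CSD 12 probes were higher and 11 lower, although 8 of the 23 changed sign when 1 pup was left out, and 1 was called, that of Hdac5 (limma adjusted p = 0.031 over all probes). The call was lost over all probes without CSD 1 (limma adjusted p = 0.0515), CSD 8 (0.0552), CSD 6 (0.0567), CSD 9 (0.074) or VD 4 (0.0993), and without the litter of mother 4 (0.0615), mother 3 (0.106) or mother 5 (0.229). Of all 56366 probes, 980 were called (1.74%).

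**Figure D4:**
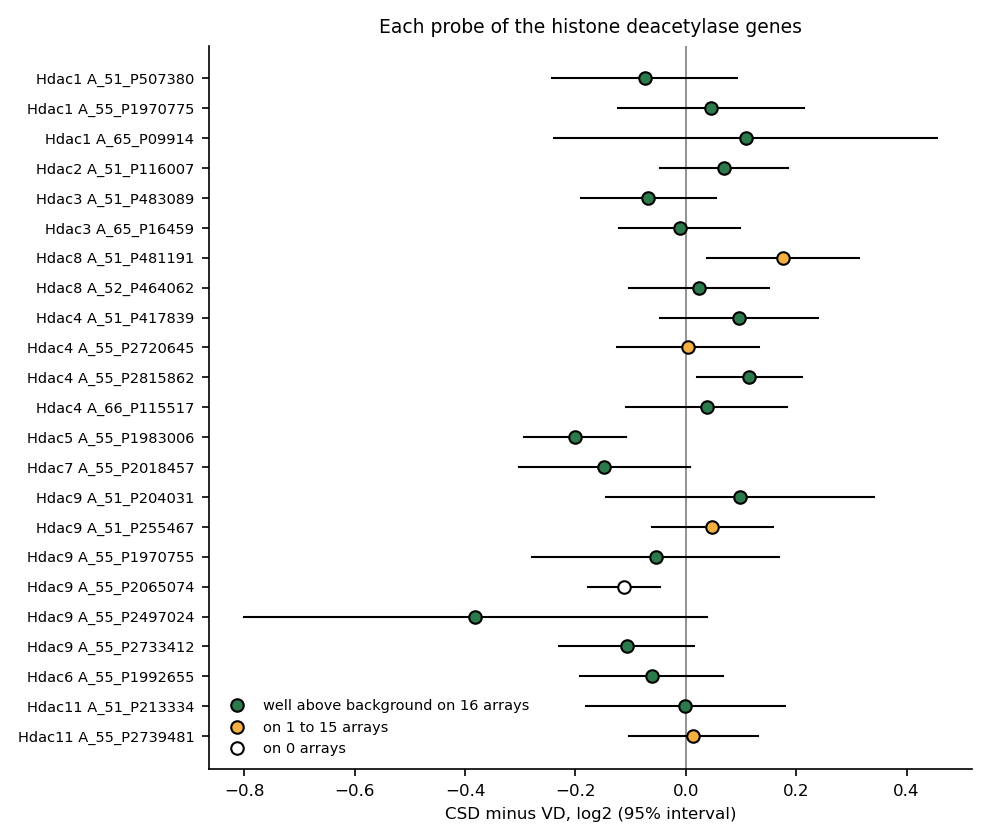
Difference between CSD and VD pups on the log2 scale with its 95% interval for each of the 23 probes, coloured by the number of arrays on which the probe was well above background. The Hdac5 probe lies at -0.20 with its interval below 0, while the 6 Hdac9 probes and the 3 Hdac1 probes lie on both sides of 0.

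Sex was compared in the same model, with 6 females and 10 males. Limma called 0 members, against 22 of all genes (0.0599%), and 2 members lay under the unadjusted limit, against 6.45% of all genes. Hdac2 was 7.50 ± 0.14 in females and 7.30 ± 0.09 in males (SD, n = 6 and 10). The fitted difference was 0.18 (SE 0.055, limma adjusted p = 0.584). Hdac9 differed by 0.14 (SE 0.055, limma adjusted p = 0.729), with the highest female, VD 5, among its values. Neither passed the limit. Hdac5 differed between the sexes by 0.07 (SE 0.043, limma adjusted p = 0.832).

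The delivery difference was then compared between females and males through an interaction term. No member was called (0 of 10) and 0 lay under the unadjusted limit, against 1 gene called of all 36709 (0.00272%) and 4.72% under the unadjusted limit. For Hdac5 the difference in females exceeded that in males by -0.02 (SE 0.090, 95% interval -0.22 to 0.17). The interactions furthest from 0 were those of Hdac11, at 0.23 (SE 0.123, limma adjusted p = 0.981), and Hdac7, at -0.22 (SE 0.142, 0.981). The Hdac7 means of CSD and VD were 10.82 and 11.12 in females, and 11.03 and 11.10 in males. Only 2 VD females were available.

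Litters of the same delivery mode were compared as a measure of how far deacetylase genes vary without a change in delivery. Between mothers 4 and 3 in CSD, 0 members were called against 32 of all genes (0.0872%), and 2 lay under the unadjusted limit, against 7.68%. These were Hdac2, higher by 0.16 in the litter of mother 4 (SE 0.063, limma adjusted p = 0.529), and Hdac8, higher by 0.15 (SE 0.065, limma adjusted p = 0.609). Between mothers 6 and 5 in VD, 0 members were called against 321 of all genes (0.874%), and 2 lay under the unadjusted limit, against 11.5%. Hdac6 differed there by -0.20 (SE 0.071, limma adjusted p = 0.242) and Hdac11 by 0.21 (SE 0.079, limma adjusted p = 0.275). Differences between litters of 1 delivery mode lay farther from 0 than the delivery difference for several members, namely Hdac1, Hdac3, Hdac6 and Hdac11 between the VD litters and Hdac1, Hdac2, Hdac6, Hdac8 and Hdac11 between the CSD litters. For Hdac1 the difference between the VD litters was -0.20. The 2 kinds of difference were not tested against each other. For Hdac5 the difference between the CSD litters was 0.01 (SE 0.061).

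The genes that work with deacetylases were taken from 13 lists of 115 genes in all, chosen with earlier results of these data known. Of these, 5 were called (4.35%), 3 higher and 2 lower in CSD, and the median difference was 0.01. Over all genes the called share was 1.25%, and the share at an unadjusted limma p under 0.05 was 14.5%.

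**Figure D5:**
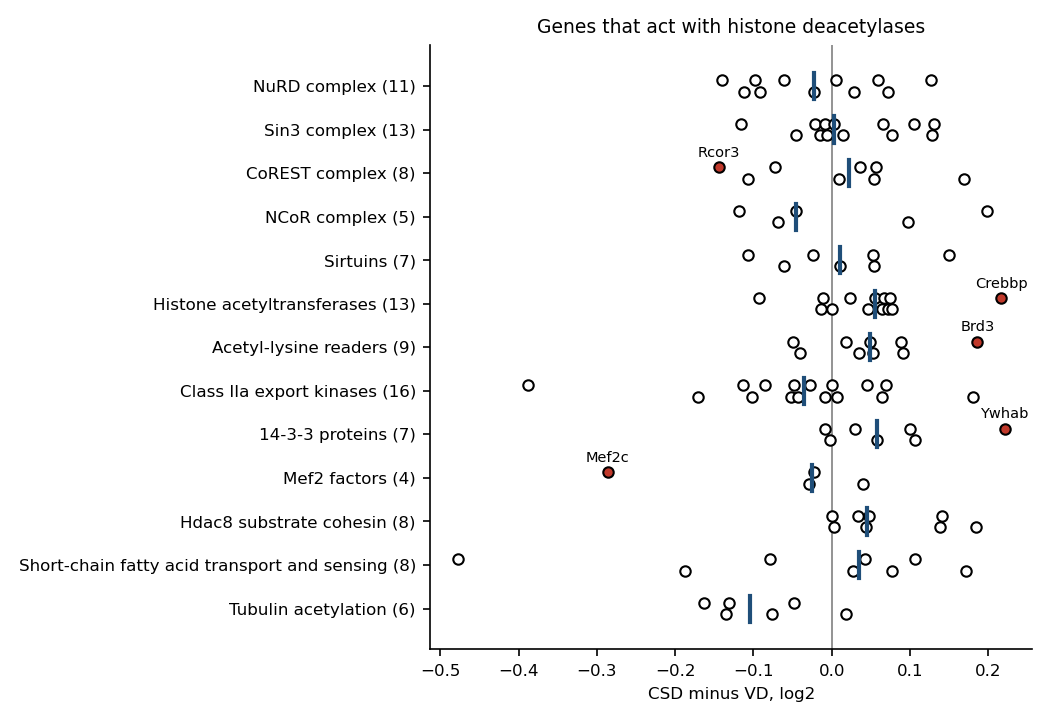
Difference between CSD and VD pups on the log2 scale for each gene of 13 lists of genes that act with deacetylases, with the number of genes in brackets; the bar is the median of a list, and filled, named points have an adjusted p under 0.05. The 5 filled points are Rcor3 and Mef2c to the left and Crebbp, Brd3 and Ywhab to the right.

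Around class IIa enzymes, 1 of the 4 Mef2 factors and 1 of the 7 genes of 14-3-3 proteins were called. Mef2c, a MEF2 factor that class IIa enzymes bind, had a lowest, median and highest value of 7.01, 7.33 and 7.46 in CSD against 7.50, 7.59 and 7.72 in VD. All 8 CSD pups lay below all VD pups, and the difference was -0.29 (SE 0.065, limma adjusted p = 0.0449). Ywhab, the 14-3-3 protein beta, had 12.24, 12.36 and 12.43 in CSD against 12.06, 12.15 and 12.19 in VD, with a difference of 0.22 (SE 0.033, limma adjusted p = 0.0062), and its groups did not overlap either. Ywhab was called in 11 of 17 alternatives of processing or model and in 18 of 20 without a pup or litter, the exceptions being the litters of mother 3 (limma adjusted p = 0.0517) and mother 5 (0.0985). With the brightest probe per gene its difference was 0.11 (limma adjusted p = 0.143). Mef2c was called in 7 of 17 and 5 of 20, with a limma adjusted p up to 0.352 when a litter was left out, that of mother 5. Its difference was -0.44 with normexp at offset 0 (limma adjusted p = 0.124), and -0.58 and -0.56 with the scanner-corrected intensity, quantile normalized (0.171) and minus the 75th percentile (0.156). Among 16 kinases of class IIa export limma called 0, 3 had an unadjusted p under 0.05, and 5 were higher and 11 lower. The 2 with the smallest p were Sik1, a salt-inducible kinase, at -0.39 (SE 0.109, limma adjusted p = 0.096), and Prkd2, a protein kinase D, at -0.17 (SE 0.053, limma adjusted p = 0.13). The third, Sik2, also a salt-inducible kinase and named after its value was seen, lay on the other side of 0, at 0.18 (SE 0.057, limma adjusted p = 0.138).

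Among the corepressor complexes of class I enzymes, 1 gene was called. Rcor3, a CoREST scaffold, had a lowest, median and highest value of 7.88, 7.96 and 8.03 in CSD against 7.997, 8.09 and 8.17 in VD. Of the CSD pups 6 lay below every VD pup, and the difference was -0.14 (SE 0.032, limma adjusted p = 0.0395). It was called in 7 of 17 alternatives of processing or model and in 5 of 20 without a pup or litter, with a limma adjusted p up to 0.189 in the latter, without the litter of mother 3. Its difference was -0.29 with the brightest probe per gene (limma adjusted p = 0.0481) and -0.22 without the litter of mother 5 (0.053). The other 7 CoREST genes were not called. Of the 8, 3 had an unadjusted limma p under 0.05, and 5 were higher in CSD.

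In the 11 NuRD genes limma called 0 (1 at an unadjusted p under 0.05), with 5 higher and 6 lower, and the smallest p belonged to Mta3 at -0.14 (limma adjusted p = 0.19) and Mbd3 at -0.11 (0.348), both subunits of the complex. In the 13 Sin3 genes 0 were called (2 at the unadjusted limit), with 7 higher and 6 lower, led by Arid4b at 0.13 (limma adjusted p = 0.0684) and Brms1l at -0.12 (0.208). In the 5 genes of the NCoR complex 0 were called (3 at the unadjusted limit), with 2 higher and 3 lower. Its scaffold Tbl1x lay at 0.20 (limma adjusted p = 0.0952) and the corepressor Ncor1 at 0.10 (0.12), where 7 of 8 CSD pups were above every VD pup. Over the 37 alternatives, Mta3 ran from -0.21 to -0.08, Mbd3 from -0.20 to -0.03 and Brms1l from -0.15 to -0.08. Arid4b ran from 0.08 to 0.33, Tbl1x from 0.15 to 0.29 and Ncor1 from 0.03 to 0.14.

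Enzymes that add acetyl groups and proteins that read them each gave 1 called gene. Crebbp, a histone acetyltransferase and coactivator, had a lowest, median and highest value of 9.90, 10.13 and 10.29 in CSD against 9.78, 9.86 and 10.03 in VD, with a difference of 0.22 (SE 0.046, limma adjusted p = 0.0344). Brd3, a bromodomain protein that binds acetylated lysines, had 9.44, 9.57 and 9.65 in CSD against 9.21, 9.36 and 9.53 in VD, with a difference of 0.19 (SE 0.042, limma adjusted p = 0.0444). In both genes the highest VD pup was exceeded by 7 of the 8 CSD pups. Crebbp was called in 11 of 17 and 12 of 20 alternatives of these kinds, with a limma adjusted p up to 0.224 without the litter of mother 5. Its difference was 0.07 with the brightest probe per gene (0.598) and 0.34 and 0.35 with the scanner-corrected intensity, quantile normalized (0.0335) and minus the 75th percentile (0.0283). Brd3 was called in 6 of 17 and 4 of 20, with a limma adjusted p up to 0.268 without the litter of mother 4. Of 13 acetyltransferases 10 were higher in CSD, and of 9 readers 7, with 1 gene of each list called, against 51.7% of all genes higher.

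The sirtuins, a separate deacetylase family that uses NAD, had 0 of 7 called by limma (1 at an unadjusted p under 0.05), with 4 higher and 3 lower. Sirt6 lay at -0.11 (limma adjusted p = 0.112) and Sirt1 at 0.15 (0.389). Over the 37 alternatives Sirt6 ran from -0.25 to -0.08 and Sirt1 from 0.08 to 0.29. Of 8 cohesin genes tied to Hdac8, 0 were called (3 at the unadjusted limit) and 7 were higher in CSD, with the loader Nipbl at 0.14 (limma adjusted p = 0.093) and the subunit Rad21 at 0.14 (0.133). The third was Esco1, a cohesin acetyltransferase also named after its value was seen, at 0.18 (0.148). Of 6 genes of tubulin acetylation, the substrate of Hdac6, 0 were called (1 at the unadjusted limit) and 5 were lower, among them the alpha tubulins Tuba1b at -0.16 (limma adjusted p = 0.252) and Tuba1a at -0.14 (0.488). Without the litter of mother 5 they were 0.01 and 0.07, and in males alone Tuba1a was 0.01.

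Transporters and receptors of short-chain fatty acids, which bring butyrate to the cells or sense it, had 0 of 8 called, with 5 higher and 3 lower in CSD and a median of 0.03. The 2 with the smallest p had values below 0 and an unadjusted limma p under 0.05. Slc16a3, a monocarboxylate transporter, lay at -0.19 (SE 0.063, limma adjusted p = 0.16), and Ffar2, a receptor for short-chain fatty acids found on leukocytes and enteroendocrine cells, at -0.48 (SE 0.174, limma adjusted p = 0.196). Over the 37 alternatives Slc16a3 ran from -0.44 to -0.12 and Ffar2 from -0.68 to -0.28. In both genes the highest CSD pups lay among the VD pups.

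Markers of the cell types that the colon holds were set beside these values. Limma called 0 genes in each of the 8 marker lists, and no list held more than 2 genes at an unadjusted p under 0.05. Leukocyte markers were lower in CSD for 9 of 10 genes (median -0.29), with a log2 summed intensity that was 13.06 ± 0.40 in CSD and 13.39 ± 0.27 in VD pups (SD, n = 8 a group) and Csf1r as the brightest gene, which does not rank abundance. Endothelium markers were lower for 7 of 7 (median -0.10, summed 11.47 ± 0.11 against 11.60 ± 0.07, Esam the brightest). Epithelium markers were higher for 10 of 12 (median 0.17), although their sum, with Krt8 the brightest, was 19.35 ± 0.15 against 19.34 ± 0.12. Smooth muscle markers were lower for 6 of 8 (median -0.11, summed 17.85 ± 0.21 against 17.999 ± 0.18, Tagln the brightest). Skeletal muscle markers were lower for 6 of 7 (median -0.07, summed 12.76 ± 0.16 against 12.98 ± 0.20, Acta1 the brightest), and fibroblast markers for 4 of 6 (median -0.05, summed 16.32 ± 0.20 against 16.47 ± 0.11, Dcn the brightest). Enteric neuron and glia markers were higher for 5 of 8 (median 0.02), although their sum, with Uchl1 the brightest, was 11.42 ± 0.11 against 11.50 ± 0.11. Small intestine markers were lower for 6 of 10 (median -0.02), whereas their sum, with Fabp2 the brightest, was 12.69 ± 0.32 in CSD against 12.34 ± 0.22 in VD. The part of these cell types in the values of Hdac5, Mef2c and the other genes was not tested.

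The genes whose values over the 16 pups ran most like those of Hdac5 were sought among 20535 genes with a probe well above background on all arrays. They were Ift22, a gene of intraflagellar transport (r = 0.84), Insrr, the insulin receptor-related receptor (r = 0.84), and Cd163l1, a scavenger receptor gene (r = 0.83). With the group means removed, r was 0.67, 0.56 and 0.61. The 16 values share litters and slides, and the genes were picked for their r, so these are descriptions. The differences between CSD and VD were -0.13 for Ift22 (limma adjusted p = 0.144), -0.40 for Insrr (0.0161) and -0.80 for Cd163l1 (0.0399).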

How the data were processed

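Colon RNA of 16 pups was measured, 1 array each. The authors deposited scanner output per array (mean intensity and local background of each spot, Agilent Feature Extraction 12.0.3.2 per the file headers) and a gene matrix in log2 units that the authors made with limma 3.38 (submitters' processing notes) by correcting, quantile normalizing, dropping dim probes and averaging per gene. From the scanner intensities, limma 3.58.1 in R 4.3.3 applied normexp (offset 50) to all 62976 spots. Control spots and spots marked as outliers were left out, and quantile normalization followed. Probes above the 5% quantile on 4 arrays or more, 56366 of 56605, were averaged by gene name. lmFit and eBayes had fixed effects for delivery and sex, with the mother entered through duplicateCorrelation (consensus 0.0152). The interaction fit could be made for 36709 genes. Litters were compared with mother and sex as fixed effects. The number of arrays limits the precision, and p-values treat pups of 2 litters per group as nearly independent.

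Group, sex and mother came from the labels. Members, lists and their markers were chosen with earlier results of these data known. Named genes were all members, the called genes of each list that holds no markers or otherwise the 2 with the smallest p, and for Hdac5 the 3 genes of highest Pearson r. The alternatives are given in the closing section. Probe sequences and mm9 positions are those of the scanner output, and promoters those of RefSeq (GRCm38.p6). Exon annotation of mm9 was not used here. The file headers and the paper's methods name different array designs. Plots were drawn with matplotlib 3.10.9.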

Additional observations from a re-analysis of the deposited data

Results flagged for a closer look

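In 8 of 58 groups of 8 pups examined, 1 pup stood apart from the rest, by the gap to the nearest pup divided by the range of the group. Chance sets apart about 1 in 20 independent groups, whereas these hold gene averages beside their own probes in the same 16 pups, so the count was not tested against it. For Hdac9, VD 5 lay at 7.31 against 7.03 in the next VD pup (gap 0.578 of the range). The Hdac9 probe A_55_P2497024 showed the same pup at 9.10 against 7.54 (0.905), and the Hdac9 probe A_55_P2733412 set apart VD 4 at 7.25 against 6.98 (0.584). For the Hdac8 probe A_51_P481191, CSD 1 lay at 7.13 against 6.79 (0.687), and for A_52_P464062 CSD 8 lay low, at 6.79 against 7.10 (0.549). For the Hdac1 probe A_55_P1970775, CSD 9 lay at 13.91 against 13.61 (0.58). For the Hdac4 probe A_55_P2720645, which was well above background on 3 arrays, CSD 1 lay at 6.49 against 6.34 (0.591) and VD 7 at 6.63 against 6.38 (0.567).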

How the results depend on the processing

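Hdac5 was the member called in the comparison reported, and it was lower in CSD in all 37 alternatives. The number of members called was 0 with normexp at offset 0 or 16, with the scanner-corrected intensity (quantile normalized or minus the 75th percentile), in the deposited matrix, in males only, with litter means as samples and on either slide alone, and 0 to 1 when a pup or litter was left out. Of the 23 deacetylase probes, 1 was called in the comparison reported, 0 with offset 16 and with either form of the scanner-corrected intensity, and 0 to 2 when a pup or litter was left out, a check chosen after seeing the data. The 2 were called without the litter of mother 6, Hdac5 and the Hdac9 probe A_55_P2065074 (limma adjusted p = 0.0408), which was well above background on 0 arrays. The count over all genes was 460 and became 102 with offset 0, 243 with offset 16, 177 and 164 with the scanner-corrected intensity (quantile normalized and minus the 75th percentile), 170 in the matrix, 992 with no sex in the model, 0 in males only (3295 at an unadjusted limma p under 0.05), 0 with litter means (4034 likewise), 11 on slide 1 and 0 on slide 2 (3789 likewise). It was 460 with no filter on dim probes, 360 with probes well above background on every array of a group, 506 with the brightest probe per gene, 587 with no mother in the model, 474 with slide as a fixed effect and 318 with trend and robust eBayes, and Hdac5 was called in each of these. It was 138 to 2265 when a pup or litter was left out, with 2265 without the litter of mother 6. The percentile scaling moved the median of all genes to 0.04. The share of higher among called genes was 56.3%, against 42.2% with offset 0, 36.4% on slide 1, 47.8% when mother 4's litter was left out and 32.8% when mother 5's was. The causes were not tested.

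With the title numbers as a replicate block in place of the mother, 697 genes were called and Hdac5 stayed at -0.20 (limma adjusted p = 0.0253). The consensus correlation was 0.0463 with the numbers, against 0.0152 with the mother. For the 5 shared numbers the correlation of deviations from the group means ran from -0.05 to 0.22. With sex removed it ran from -0.12 to 0.13. For numbers 5 and 6 the VD pup most like the CSD pup was that of the same number. These values do not settle whether a shared number pairs the pups. Sex, interaction and litter comparisons had 0 members called in all 3 alternatives run for each. The difference of Hdac11, which was not called, changed sign in 12 alternatives, that of Hdac1 in 5, Hdac6 in 2, and Hdac2 and Hdac9 in 1 each. Among named partner genes that were not called in the comparison reported, limma called Arid4b, Sirt6 and Sik1 both with no sex in the model (adjusted p = 0.0304, 0.0491 and 0.0418) and without the litter of mother 6 (0.0493, 0.0354 and 0.0309). Tbl1x was called with no sex in the model (0.0435) and without VD 9 (0.0159), Nipbl with no sex in the model (0.0406), Mbd3 with the brightest probe per gene (0.0447), and Prkd2 and Tuba1b without the litter of mother 6 (0.0378 and 0.028).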
